A study of Mus musculus with 4 samples.

Results

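The genes described here encode acute phase proteins: the serum amyloid A genes Saa1, Saa2, Saa3 and Saa4, the orosomucoid genes Orm1, Orm2 and Orm3, lipocalin 2 (Lcn2), haptoglobin (Hp) and C-reactive protein (Crp). They are 10 of the 18193 genes and 12 of the 45037 probe sets compared. Every probe set that the platform annotation gives to these symbols was taken. The genes were chosen by their levels on these arrays, the spread between the Baf60a LKO pools and the difference between genotypes. Those values are therefore given as a description, with no test. Livers came from Baf60a LKO mice, which lack Baf60a in the liver, and from wild-type (WT) mice, all C57BL/6. All mice ate a high-fat diet for 10 weeks from 6 weeks of age and were starved overnight before the liver was taken. Each genotype had 2 Affymetrix Mouse Genome arrays, each with an independent pool of total RNA. The number and sex of the mice in a pool and the Cre driver are not given in the sources used here. Values are log2 levels, so a difference of 1 is a doubling.

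The acute phase response is the change in secreted proteins that the liver makes during infection or injury. Interleukin-6, acting through gp130, JAK kinases and STAT3, and interleukin-1 and tumour necrosis factor, acting through NF-kB, raise these genes in hepatocytes together with C/EBP factors and glucocorticoids. Serum amyloid A proteins travel on high-density lipoprotein, orosomucoids bind drugs and lipids in plasma, lipocalin 2 withholds iron by binding bacterial siderophores, haptoglobin captures free haemoglobin, and C-reactive protein is a pentraxin that binds microbial and damaged cell surfaces. In mice C-reactive protein is only a weak acute phase reactant.

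Array medians ran from 4.19 to 4.27. Pearson correlations between arrays were 0.987 to 0.991 for pairs that include WT replicate 1, and 0.993 to 0.996 for the remaining pairs. Probe sets for bacterial transcripts, a gauge of background, had 95th percentiles of 3.02 to 3.42. Smarcd1, the gene of BAF60a, averaged 5.32 in Baf60a LKO and 5.75 in WT on its brighter probe set, and whether that probe set lies in the deleted part is not known. The control probe sets for Cre recombinase were higher in both Baf60a LKO arrays than in both WT arrays, but the CreX-5 probe set lay below background on every array. Albumin (Alb) read 14.13 and 14.17 in Baf60a LKO and 14.05 and 14.08 in WT.

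The promoters of Saa1 and Saa2 are shown because these genes differed in the same way. Those of Orm2 and Orm3 are shown because near-alike windows accompanied mean differences of opposite sign. The Orm3 groups overlapped, however, and its difference was -0.05 without Baf60a LKO replicate 1. Each window holds the 300 bases from 250 before to 50 after the transcription start in RefSeq (GRCm38.p6), written 5′ to 3′ on the gene's strand. Of the 10 genes, 8 had a window, and those of Orm1 and Hp are not used here. Capitals mark matches to a C/EBP motif (TTGCNNAA) and to an interleukin-6 response element (CTGGGAA), which in Orm3 lies on the opposite strand and is printed as TTCCCAG.
Saa1, chr7:46742931-46743230, minus strand: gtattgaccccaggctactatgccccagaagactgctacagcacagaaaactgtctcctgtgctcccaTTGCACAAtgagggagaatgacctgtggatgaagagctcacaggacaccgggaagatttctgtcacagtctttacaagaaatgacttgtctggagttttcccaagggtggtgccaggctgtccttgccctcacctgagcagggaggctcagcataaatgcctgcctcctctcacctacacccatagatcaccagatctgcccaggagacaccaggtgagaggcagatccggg
Saa2, chr7:46751583-46751882, plus strand: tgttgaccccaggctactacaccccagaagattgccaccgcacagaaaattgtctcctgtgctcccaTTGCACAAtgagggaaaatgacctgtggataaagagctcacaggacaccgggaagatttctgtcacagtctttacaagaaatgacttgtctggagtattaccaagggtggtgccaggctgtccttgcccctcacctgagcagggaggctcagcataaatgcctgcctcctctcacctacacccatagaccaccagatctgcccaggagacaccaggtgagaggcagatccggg
Orm2, chr4:63362199-63362498, plus strand: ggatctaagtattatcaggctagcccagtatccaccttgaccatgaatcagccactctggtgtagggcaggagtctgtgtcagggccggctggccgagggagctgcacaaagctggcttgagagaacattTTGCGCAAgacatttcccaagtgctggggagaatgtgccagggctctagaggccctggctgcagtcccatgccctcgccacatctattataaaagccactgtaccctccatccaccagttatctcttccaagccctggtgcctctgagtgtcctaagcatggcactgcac
Orm3, chr4:63355908-63356207, plus strand: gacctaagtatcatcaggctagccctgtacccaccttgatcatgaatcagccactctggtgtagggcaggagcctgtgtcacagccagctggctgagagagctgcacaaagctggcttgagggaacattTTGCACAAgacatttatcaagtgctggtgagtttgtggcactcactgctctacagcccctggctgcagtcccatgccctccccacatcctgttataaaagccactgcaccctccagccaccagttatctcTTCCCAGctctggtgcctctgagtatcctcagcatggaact

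The windows of Saa1 and Saa2 were identical at 287 of 301 aligned positions (95.3%), and those of Orm2 and Orm3 at 264 of 305 (86.6%). The other pairs of windows lay between 46.7% and 54.2%. On both strands, a C/EBP match was present in Saa1, Saa2, Saa3, Saa4, Orm2, Orm3 and Lcn2 and absent in Crp, while 10.8% of all 32851 windows in the table held such a match. The Orm2 match, TTGCGCAA, reads the same on both strands and was counted once per strand. The Orm3 match, TTGCACAA, is the sequence also found in Saa1 and Saa2. The interleukin-6 element matched in Orm3 alone among the 8 (11.14% of all windows), and an NF-kB motif (GGNNTTTCC) in Saa3 alone (5.82%). A STAT motif (TTCNNNGAA), held by 8.3% of all windows, matched in none of the 8. Matches describe letters in these windows and are not binding sites.

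Saa1 and Saa2, the main hepatic acute phase forms, were higher in both Baf60a LKO pools than in both WT pools. The genes neighbour each other on chromosome 7. Saa1 was read by 2 probe sets. The brighter, 1419075_s_at, read 12.40 and 12.97 in Baf60a LKO and 10.36 and 10.69 in WT. Its means were 12.69 ± 0.40 in Baf60a LKO and 10.53 ± 0.23 in WT (SD, n = 2 each), a difference of 2.16 or 4.47-fold. The other, 1450788_at, read 12.12 and 12.59 in Baf60a LKO and 10.31 and 10.59 in WT, a difference of 1.90 or 3.73-fold. The groups did not overlap on either, and each difference exceeded both gaps between pools of one genotype.

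Saa2 was read by 1 probe set, 1449326_x_at, at 11.73 and 12.46 in Baf60a LKO and at 9.10 and 9.57 in WT. The means were 12.10 ± 0.52 in Baf60a LKO and 9.33 ± 0.34 in WT (SD, n = 2 each), a difference of 2.76 or 6.79-fold. The smallest difference between any Baf60a LKO pool and any WT pool was 2.16. In bulk tissue, more cells of a type and more RNA per cell cannot be told apart.

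Saa1 and Saa2 were not read independently. On this platform an _s_at probe set can match several transcripts and an _x_at probe set can cross-hybridise. The 1419075_s_at probe set is annotated to Saa1, yet the transcript it was designed on belongs to Saa2 in RefSeq, as does that of 1449326_x_at. The 1450788_at probe set is the one whose transcript is Saa1's own and whose name carries no such mark. RefSeq also lists the symbol of each as an older name of the other. The centred profiles of Saa1 and Saa2 over the 4 arrays differed by a root mean square of 0.31, and how much of each value belongs to which gene is uncertain. The target transcript was that of the annotated gene for 9 of the 12 probe sets, that of another gene for this 1, and not in the RefSeq table for 2, those of Orm1 and Lcn2.

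Saa3 and Saa4, at the other end of the same cluster, did not follow Saa1 and Saa2. Saa3, which macrophages and adipocytes also make in mice, read 7.30 and 8.18 in Baf60a LKO and 6.86 and 7.86 in WT, and the groups overlapped. The difference was 0.37, smaller than the gaps of 0.88 between the Baf60a LKO pools and 1.00 between the WT pools. Leaving out Baf60a LKO replicate 2 gave -0.07 and leaving out WT replicate 1 gave -0.13. Leaving out Baf60a LKO replicate 1 gave 0.81 and leaving out WT replicate 2 gave 0.87. Saa4, the constitutive form, read 11.91 and 12.13 in Baf60a LKO and 11.91 and 11.93 in WT on its brighter probe set, a difference of 0.10. Its second probe set, 1419319_at, read 10.17 and 10.81 in Baf60a LKO and 10.32 and 10.22 in WT, a difference of 0.22. The groups overlapped on both, and without Baf60a LKO replicate 2 the brighter probe set was at -0.01.

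**Figure D1:**
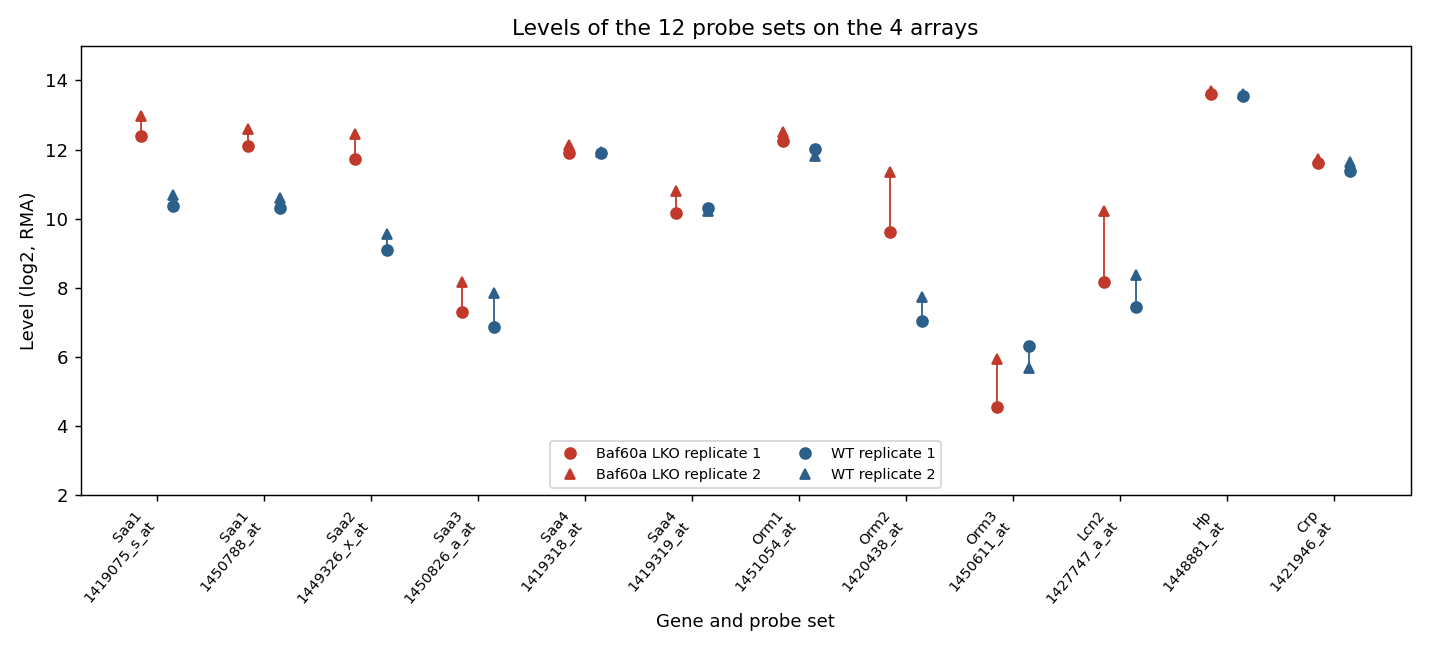
Log2 level (vertical axis) of the 12 probe sets on the 4 arrays, Baf60a LKO in red and WT in blue, circles for replicate 1 and triangles for replicate 2, with a line joining pools of a genotype. The Baf60a LKO points lie above the WT points without overlap for Saa1 (both probe sets), Saa2, Orm1 and Orm2. Replicate 2 is the higher Baf60a LKO pool for all 12.

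The orosomucoid genes form a cluster on chromosome 4 and differed from each other in their pattern. Orm1, the predominant form in mouse liver, read 12.26 and 12.51 in Baf60a LKO and 12.02 and 11.82 in WT. The groups did not overlap, and the difference was 0.46 or 1.38-fold. Orm2, whose window is printed above, read 9.62 and 11.34 in Baf60a LKO and 7.03 and 7.72 in WT. Its means were 10.48 ± 1.22 in Baf60a LKO and 7.38 ± 0.49 in WT (SD, n = 2 each), a difference of 3.11 or 8.62-fold, the largest of the 10 genes. The Baf60a LKO pools lay 1.72 apart, and the smallest difference between any Baf60a LKO pool and any WT pool was 1.90.

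Orm3 read 4.54 and 5.95 in Baf60a LKO and 6.32 and 5.69 in WT. The groups overlapped, since the higher Baf60a LKO pool lay above the lower WT pool. The difference of -0.76 was smaller than the gap of 1.41 between the Baf60a LKO pools. It was -0.05 without Baf60a LKO replicate 1, -1.46 without Baf60a LKO replicate 2, -0.44 without WT replicate 1 and -1.08 without WT replicate 2. No orosomucoid probe set is annotated to several genes or named _s_at or _x_at, but the genes are close relatives and shared hybridisation between them was not tested.

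Lcn2 was highest in Baf60a LKO replicate 2 and did not separate the genotypes. It read 8.17 and 10.21 in Baf60a LKO and 7.44 and 8.36 in WT, so Baf60a LKO replicate 1 lay below WT replicate 2. The means were 9.19 ± 1.44 in Baf60a LKO and 7.90 ± 0.65 in WT (SD, n = 2 each). The difference of 1.29 was smaller than the gap of 2.03 between the Baf60a LKO pools. It was 0.27 without Baf60a LKO replicate 2, 2.31 without Baf60a LKO replicate 1, 0.83 without WT replicate 1 and 1.75 without WT replicate 2.

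Hp and Crp barely differed. Hp read 13.60 and 13.68 in Baf60a LKO and 13.55 and 13.61 in WT, a difference of 0.06, and the groups overlapped. Without 1 array it ran from 0.02 without Baf60a LKO replicate 2 to 0.10 without Baf60a LKO replicate 1, and it was 0.03 without WT replicate 1 and 0.10 without WT replicate 2. Crp read 11.60 and 11.72 in Baf60a LKO and 11.37 and 11.65 in WT, a difference of 0.15 with overlapping groups. Leaving out Baf60a LKO replicate 1 gave 0.21 for Crp and leaving out replicate 2 gave 0.09. Leaving out WT replicate 1 gave 0.01 and leaving out replicate 2 gave 0.29.

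**Figure D2:**
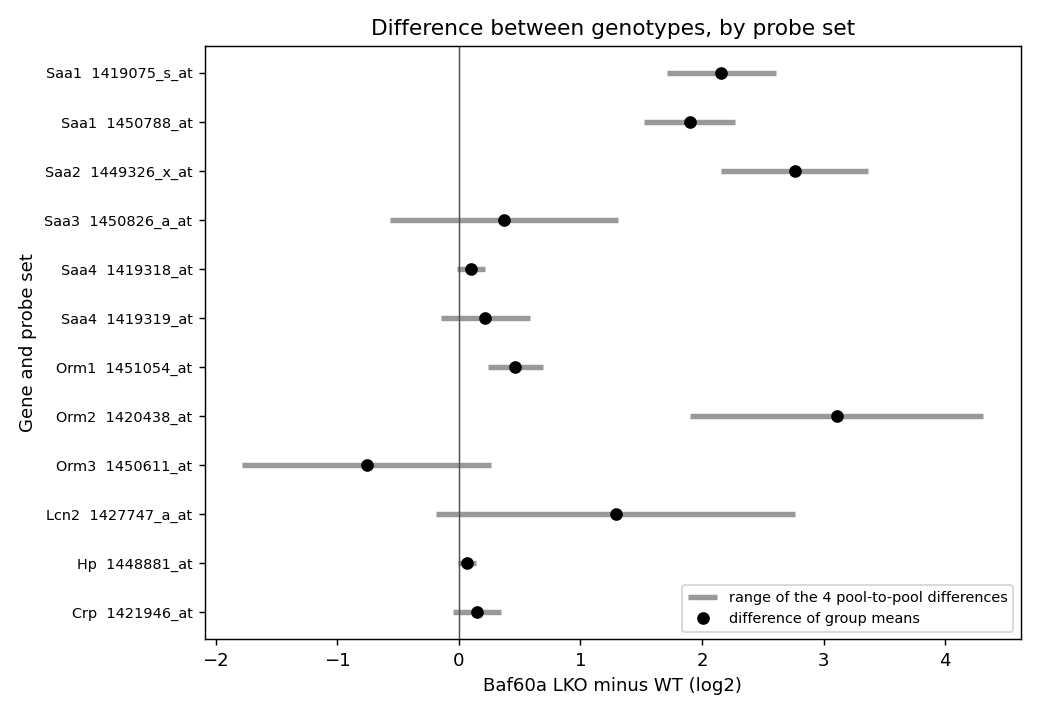
Baf60a LKO minus WT (log2, horizontal axis) for each probe set: the point is the difference of group means and the grey bar spans the 4 differences between any Baf60a LKO and any WT pool. Bars clear of 0 belong to Saa1, Saa2, Orm1 and Orm2, while those of Saa3, Saa4, Orm3, Lcn2, Hp and Crp cross it.

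Over the 10 genes the median difference between genotypes was 0.42, against 0.00 over all genes, with 9 genes above 0 and Orm3 below. The groups did not overlap for Saa1, Saa2, Orm1 and Orm2, 4 genes higher in Baf60a LKO and 0 lower, where 22.8% of all genes lay higher and 19.6% lower without overlap. The 4 genes at least 2-fold higher in means were Saa1, Saa2, Orm2 and Lcn2 (0.528% of all genes). By limma over all genes, 0.236% of genes rose and 0.247% fell at an adjusted p under 0.05, and nothing about the 10 genes is read from that share. These counts follow from the choice of genes and carry no test.

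The pools of a genotype differed in these genes as well. Baf60a LKO replicate 2 lay above replicate 1 for all 10 genes, against 45.4% of all genes, and the median gap was 0.65 (-0.02 over all genes). The gaps ran from 0.08 for Hp to 2.03 for Lcn2, with 1.72 for Orm2, 1.41 for Orm3, 0.88 for Saa3, 0.73 for Saa2 and 0.57 for Saa1. The Lcn2 gap was larger in size than that of 99.99% of probe sets. In WT, replicate 2 lay above replicate 1 for 8 of the 10 genes (51.3% of all genes), with gaps of 1.00 for Saa3, 0.92 for Lcn2 and 0.70 for Orm2, and Orm1 and Orm3 ran the other way at -0.20 and -0.64. The standard deviation of the gap over all genes was 0.20 in Baf60a LKO and 0.32 in WT. The gap between pools is 1 difference per genotype and has no replicate check. The spread between the Baf60a LKO pools was among the values that chose these genes, so its shares and ranks carry no test. Saa1 and Saa2, not read independently, do not count as separate genes here.

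**Figure D3:**
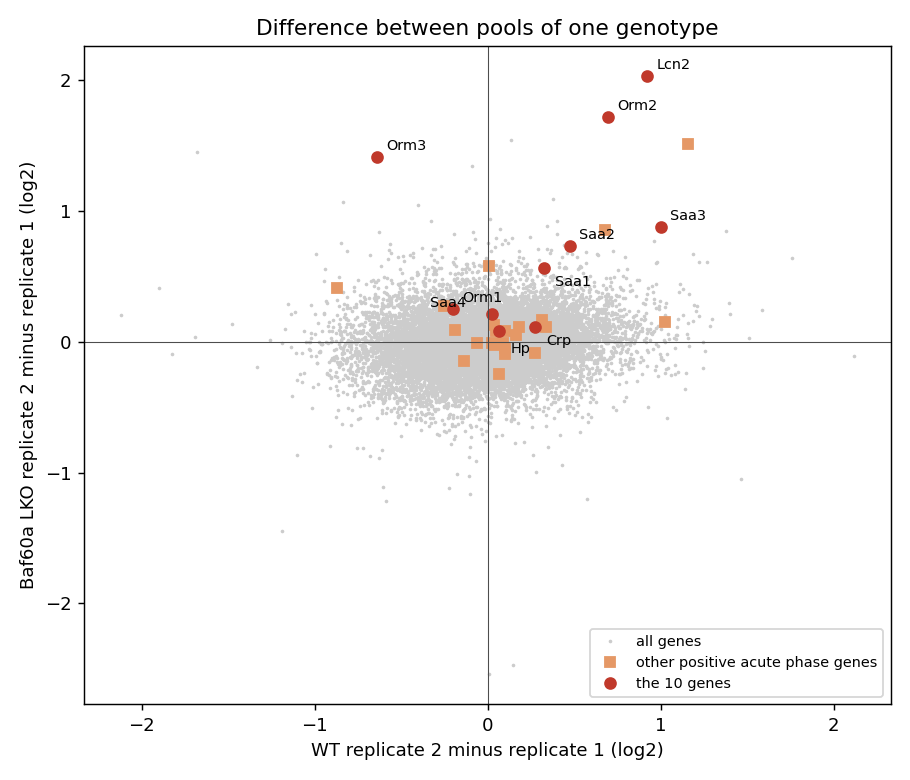
Replicate 2 minus replicate 1 (log2) in Baf60a LKO (vertical axis) and in WT (horizontal axis) for the 10 genes in red, the other positive acute phase genes as orange squares and all 18193 genes in grey. Lcn2 (2.03), Orm2 (1.72) and Orm3 (1.41) stand high on the vertical axis, and all 10 red points lie above 0.

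Other genes that rise in the acute phase response stood mostly slightly higher in Baf60a LKO, and none passed the test. Of 26 listed, 23 had a value, and 0 rose and 0 fell by limma with Benjamini-Hochberg adjustment over all genes (6 at an unadjusted p under 0.05), where 0.484% of all genes passed in either direction and 1853 of all 18193 had an unadjusted p under 0.05. Their median difference was 0.13, with 16 above 0 and 7 below. The groups did not overlap for 15, of which 12 lay higher and 3 lower in Baf60a LKO, where 22.8% of all genes lay higher and 19.6% lower without overlap. Of these 23, 14 had replicate 2 above replicate 1 in Baf60a LKO and 18 in WT.

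Hamp2, a hepcidin gene, had the largest difference in the list. It read 12.90 and 13.31 in Baf60a LKO and 11.56 and 10.69 in WT, a difference of 1.98 ± 0.31 (SE, limma adjusted p = 0.114). It passed when array medians were subtracted (adjusted p = 0.0204) and with a trended and robust eBayes (0.0264). Its close relative Hamp, the hepcidin that controls iron export, read 12.56 and 12.55 in Baf60a LKO and 12.57 and 12.51 in WT. Near-identical copies can share probes, so the split between Hamp and Hamp2 is uncertain.

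Apcs, the serum amyloid P pentraxin and in mice a stronger reactant than Crp, read 11.15 and 11.42 in Baf60a LKO and 10.71 and 10.46 in WT, a difference of 0.70 ± 0.16 (SE, limma adjusted p = 0.246, and 0.0498 with a trended and robust eBayes). Serpina3n, an antichymotrypsin gene, went the other way, at 9.09 and 9.66 in Baf60a LKO and 10.09 and 10.10 in WT, a difference of -0.72 ± 0.21 (limma adjusted p = 0.358). The metallothionein gene Mt2 read 7.40 and 8.91 in Baf60a LKO and 8.56 and 9.71 in WT, a difference of -0.98 ± 0.58 with overlapping groups (limma adjusted p = 0.595). Its gaps of 1.51 between the Baf60a LKO pools and 1.16 between the WT pools ran the same way as those of Lcn2 and Saa3. The fibrinogen genes Fga, Fgb and Fgg differed by 0.16, 0.21 and 0.10, and the lipopolysaccharide binding protein gene Lbp by 0.38, none past the threshold.

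Genes that fall in the acute phase response went both ways. Of 12 listed, 11 had a value, 0 passed in either direction by limma (2 at an unadjusted p under 0.05), and the median was 0.00, with 5 above 0 and 6 below. Without overlap, 4 lay higher and 5 lower in Baf60a LKO, and 2 overlapped. Over all genes 22.8% lay higher and 19.6% lower without overlap. By limma 0.484% of all genes passed, and 1853 of 18193 had an unadjusted p under 0.05. Serpina6, the corticosteroid binding globulin, differed by -0.36 ± 0.12 (limma adjusted p = 0.420), F12, coagulation factor XII, by 0.32 ± 0.12, Igf1 by -0.27 ± 0.11 and Ahsg, fetuin-A, by 0.25 ± 0.12.

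**Figure D4:**
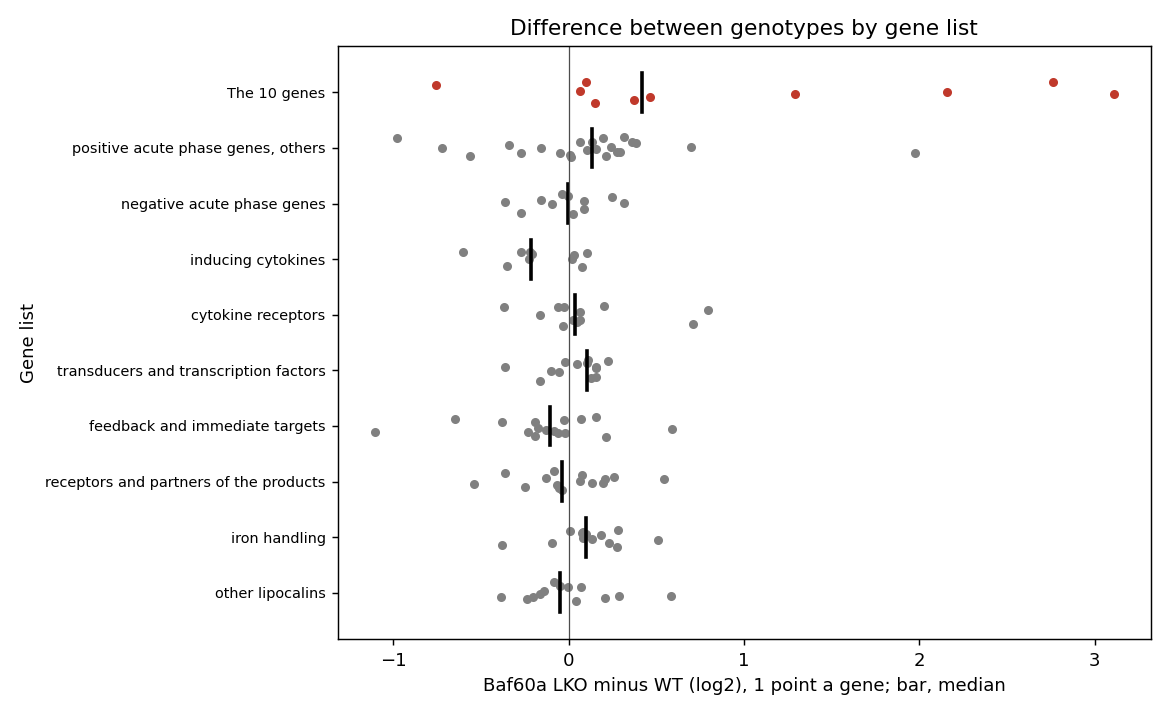
Baf60a LKO minus WT (log2, horizontal axis) by gene list, 1 point a gene, the 10 genes in red and other lists in grey, with a bar at the median. The 10 genes reach 3.11 (Orm2) with a median of 0.42, and the medians of the 9 functional lists drawn lie between -0.22 (inducing cytokines) and 0.13 (other positive acute phase genes). Cell marker lists are not drawn.

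Genes of the pathway that induces the acute phase response held no call. Of 51 measured genes for cytokines, receptors, transducers and feedback, 0 passed by limma over all genes, and 5 had an unadjusted p under 0.05. Over all genes 0.484% passed, and 1853 of 18193 had an unadjusted p under 0.05. Counts near these shares, here and in the lists below, say nothing particular about the listed genes. Among the ligands, Il6 lay near background on every array, at 1.98 and 2.39 in Baf60a LKO and 2.20 and 2.10 in WT. Il1b, interleukin-1 beta, read 5.75 in both Baf60a LKO pools and 6.19 and 6.52 in WT, a difference of -0.60 ± 0.15 (SE, limma adjusted p = 0.296). Osm, oncostatin M, differed by -0.35 ± 0.14. Ifng, interferon gamma, differed by -0.27 ± 0.15 but lay below background on every array. The 10 measured cytokines had a median of -0.22, and 2 of them, Il6 and Ifng, lay at or below background on every array.

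Of the 12 receptors, Il6ra and Il6st, the interleukin-6 receptor chain and gp130, differed by 0.02 ± 0.15 and -0.03 ± 0.14. Il1r1, the interleukin-1 receptor, differed by -0.37 ± 0.14 (limma adjusted p = 0.487). Osmr, the oncostatin M receptor, differed by 0.79 ± 0.37, with WT replicate 1 at 4.35 and the other arrays between 5.51 and 5.74. Il10rb differed by 0.71 ± 0.19, and neither gene passed the threshold. Among 13 transducers and transcription factors, Stat3 read 9.81 and 9.87 in Baf60a LKO and 9.55 and 9.68 in WT, a difference of 0.23 ± 0.12 (limma adjusted p = 0.566). Cebpb, a C/EBP factor, differed by -0.36 ± 0.12 (adjusted p = 0.413 by limma), with both Baf60a LKO pools below both WT pools, and Cebpd by 0.05 ± 0.27.

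Feedback genes and immediate targets lay lower in 12 of 16, with a median of -0.11. Socs3, the STAT3 target that shuts off gp130 signalling, read 6.97 and 6.73 in Baf60a LKO and 6.95 and 6.79 in WT, a difference of -0.02 ± 0.14 (SE, limma adjusted p = 0.972). Fos, an immediate early gene, read 6.27 and 5.81 in Baf60a LKO and 6.95 and 7.34 in WT, a difference of -1.10 ± 0.21 (limma adjusted p = 0.175). Nfkbiz, an inhibitor of kappa B family member needed for Lcn2 induction in mouse cells, differed by 0.59 ± 0.44, with WT replicate 1 at 5.49 and the other arrays between 6.68 and 6.89. Myc differed by -0.65 ± 0.36 and Socs1 by -0.38 ± 0.17.

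Receptors and partners of the proteins were read by 15 genes, with 0 past the threshold by limma (1 at an unadjusted p under 0.05). Cd163, the macrophage receptor for haptoglobin bound to haemoglobin, read 7.42 and 7.47 in Baf60a LKO and 6.66 and 7.14 in WT, a difference of 0.54 ± 0.18 (SE, limma adjusted p = 0.432). Slc22a17, a receptor for lipocalin 2, differed by -0.06 ± 0.18, and Fpr2, a receptor for serum amyloid A, by -0.36 ± 0.16. Cd36, a scavenger receptor gene, read 8.03 and 9.12 in Baf60a LKO and 8.92 and 9.30 in WT, a difference of -0.54 ± 0.36 with overlapping groups (limma adjusted p = 0.633). Among 13 iron genes, Hmox1, haem oxygenase 1, differed by 0.51 ± 0.39 and Hjv, a hepcidin inducer, by -0.38 ± 0.12, and 0 passed by limma (1 at an unadjusted p under 0.05). Of 13 other lipocalin genes 0 passed by limma (2 at an unadjusted p under 0.05). Apom, a lipocalin of high-density lipoprotein, read 12.16 and 12.06 in Baf60a LKO and 11.53 and 11.52 in WT, a difference of 0.58 ± 0.12 (limma adjusted p = 0.187). Lcn5, an epididymal lipocalin gene, differed by -0.39 ± 0.17, and Ambp, the alpha-1-microglobulin gene, by 0.28 ± 0.11.

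Markers of other cells that make Lcn2 or Saa3 were read beside these genes. Of 10 neutrophil markers 0 passed by limma (2 at an unadjusted p under 0.05), 5 lay above 0 and 5 below, and their summed linear level was 330 and 370 in Baf60a LKO and 263 and 304 in WT. S100a8 read 5.97 and 6.58 in Baf60a LKO and 4.90 and 5.87 in WT, and S100a9 6.22 and 6.59 in Baf60a LKO and 5.30 and 6.22 in WT. Ngp, a granule protein gene, read 4.88 in both Baf60a LKO pools and 4.13 and 4.21 in WT. Its difference was 0.71 ± 0.11 (SE, limma adjusted p = 0.120). Cxcr2 went the other way, at 3.91 and 3.79 in Baf60a LKO and 4.32 and 4.13 in WT. Its difference was -0.38 ± 0.13 (limma adjusted p = 0.438). Without overlap, 3 of the 10 markers lay higher and 3 lower in Baf60a LKO, and 4 overlapped. Replicate 2 lay above replicate 1 for 5 of the 10 markers in Baf60a LKO and for 3 of the 10 in WT. Several of the 10 lay near background, where the order of pools says little. The gap was 0.61 in Baf60a LKO and 0.97 in WT for S100a8, and 0.36 and 0.92 for S100a9. For Lcn2 it was 2.03 in Baf60a LKO and 0.92 in WT. The granule genes Mpo and Elane were between 3.74 and 4.43, and differed by -0.35 and 0.07. Of 11 Kupffer cell and macrophage markers, 0 passed by limma (0 at an unadjusted p under 0.05). None separated the groups, where 22.8% of all genes lay higher and 19.6% lower without overlap. The sum was 7205 and 6688 in Baf60a LKO and 6363 and 7380 in WT. Replicate 2 lay above replicate 1 for 4 of these 11 in Baf60a LKO (median gap -0.10) and for 10 in WT (median gap 0.35). The gap for Saa3 was 0.88 in Baf60a LKO and 1.00 in WT. Each gap is a single difference between pools. Whether neutrophils or macrophages contribute to the gaps of Lcn2 or Saa3 was not tested.

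Of 7 cholangiocyte markers, 7 lay above 0 and 0 passed by limma (4 at an unadjusted p under 0.05), with a median of 0.45. Their sum was 192 and 262 in Baf60a LKO and 110 and 135 in WT, highest in Baf60a LKO replicate 2, where Lcn2 was also highest. Epcam, an epithelial adhesion gene, differed by 1.17 ± 0.21 (SE, limma adjusted p = 0.154) and Pkhd1 by 1.34 ± 0.30 (limma adjusted p = 0.238). Cftr was below background on every array. Of 6 adipocyte markers, 1 fell, Car3, which hepatocytes also express, by 1.24 on the log2 scale (limma adjusted p = 0.0321), while Adipoq, the defining marker, lay between 2.35 and 2.49. The adipocyte sum was 4715 and 5346 in Baf60a LKO and 11165 and 12133 in WT. Car3 made up most of that sum on every array, so the sum follows this gene. It read 12.15 and 12.33 in Baf60a LKO and 13.42 and 13.53 in WT. The part of these cells in the values of Lcn2, Saa3 or the other genes was not tested. Lists for hepatocyte (9 measured), endothelial (8), stellate (8), erythroid (5) and plasma cell (5) markers had medians between -0.13 and -0.04 and 0 calls by limma (0 hepatocyte, 0 endothelial and 1 in each of the other lists at an unadjusted p under 0.05).

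Genes beside these loci were read next. The 5 nearest measured genes on each side of the Saa, Orm, Lcn2, Hp and Crp loci gave 50 neighbours, of which 0 passed by limma, where 0.484% of all genes did, with a median of 0.06 and a range from -0.65 to 0.70. Around the Saa cluster the largest difference was that of Myod1, the muscle transcription factor, at 2.87 and 2.88 in Baf60a LKO and 3.30 and 3.37 in WT, near background, and Saal1, the direct neighbour of Saa3, differed by 0.05. Around the Orm cluster it was that of the collagen gene Col27a1, at 8.53 and 8.20 in Baf60a LKO and 9.07 and 8.97 in WT, a difference of -0.65 (limma adjusted p = 0.261). Apcs, described above, had the largest difference beside Crp, at 0.70 against 0.15 for Crp itself. Beside Lcn2 it was 1110008P14Rik (0.32) and beside Hp Zfp821 (0.46).

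Likeness of pattern was measured as the root mean square difference of the 4 centred array values, over 4 arrays that also separate the genotypes. Nearest to Saa1 were Calml4, a calmodulin-like gene (0.12), the sialidase gene Neu2 (0.21), the lipoprotein receptor gene Vldlr (0.26), the mitochondrial import gene Tomm40l (0.27) and Pcp4l1 (0.28). Over all genes the median distance from Saa1 was 1.11, and 764 genes had a Pearson correlation above 0.95 with it. Nearest to Orm2 were the aldo-keto reductase gene Akr1c18 (0.46), Pcp4l1 (0.63), the transcription factor gene Tcf24 (0.67), Calml4 (0.71) and Neu2 (0.83). The median distance from Orm2 was 1.69 over all genes, and 554 genes had a Pearson correlation above 0.95 with it. Akr1c18 read 7.40 and 8.45 in Baf60a LKO and 4.90 and 4.49 in WT, so it shared with Orm2 a wide gap between the Baf60a LKO pools.

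Lcn2 had other nearest genes. They were Pkhd1, the fibrocystin gene (0.49), Cd24a, a surface marker of biliary and progenitor cells (0.50), the transcription factor gene Sox4 (0.53), S100a8 (0.54) and the cadherin gene Celsr1 (0.56). The median distance from Lcn2 was 1.03 over all genes, and 316 genes had a Pearson correlation above 0.95 with it. Pkhd1 read 5.77 and 6.45 in Baf60a LKO and 4.45 and 5.09 in WT. Because nearest genes were picked by their array values, no test of them is read. Among the 10 genes, Saa2 lay nearer to Orm2 (0.40) than to Lcn2 (0.88), and Lcn2 lay nearest to Saa3 (0.61) and Saa1 (0.71). This distance also depends on the size of the changes. By Pearson correlation Lcn2 was closest to Hp (0.98) and Saa4 (0.96). The values compared are those that chose the 10 genes, and shared regulation was not tested.

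**Figure D5:**
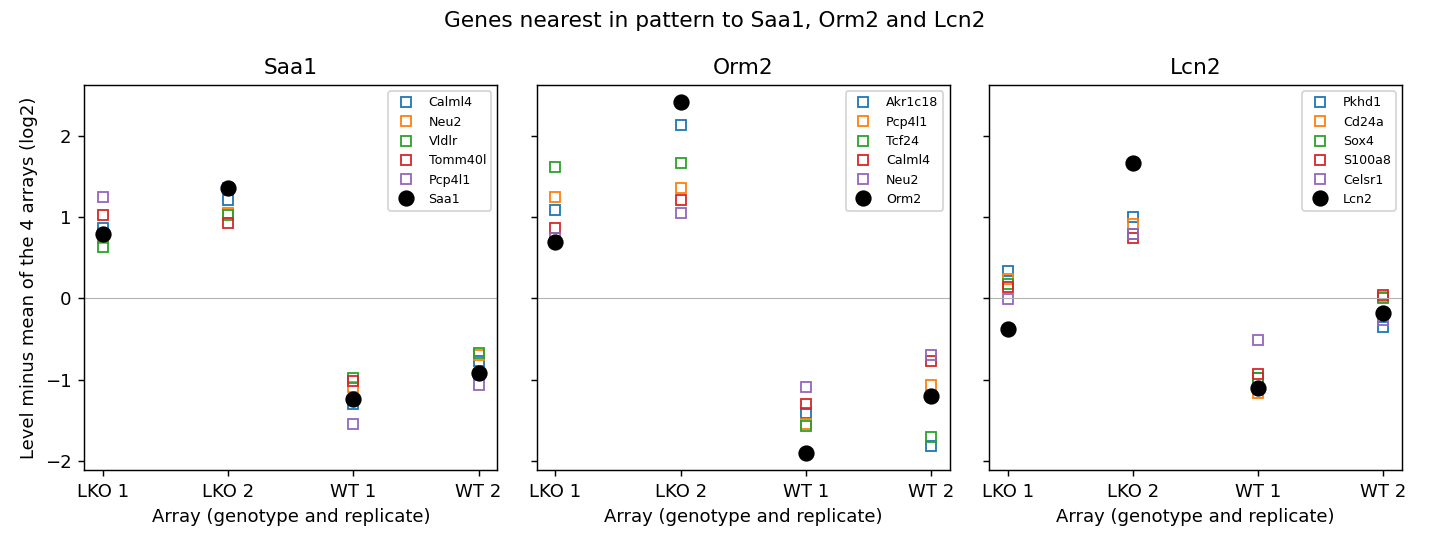
Level on each array minus the gene's mean over the 4 arrays (log2, vertical axis) for Saa1, Orm2 and Lcn2 as black circles and their 5 nearest genes as coloured squares. Saa1 and Orm2 with their neighbours split by genotype, whereas Lcn2 stands apart in Baf60a LKO replicate 2 alone, at 10.21 before centring.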

How the data were processed

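Liver RNA of 2 Baf60a LKO and 2 WT pools was measured on 4 arrays, grouped by the genotype in the labels. The authors deposited 1 log2 value per probe set and array (the scale is taken from the range of the values), and the submitters' processing notes name RMA, affy and limma, with no versions. RMA corrects background, normalizes arrays by quantiles and compresses low differences. Whether pools hold separate mice is not stated, so p-values reflect the spread between pools. Arrays hold no read depth, and their number limits the precision.

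Of 45101 probe sets, 64 controls were left out. The platform annotation named 1 gene for 34945, several for 932 and none for 9160, and 34741 were matched to GRCm38.p6 RefSeq by Entrez number. Each gene took its brightest probe set, which gave 18193 genes. The 2-sided comparison of genotypes used lmFit and eBayes (limma 3.58.1, R 4.3.3), with Benjamini-Hochberg adjustment over all genes and a threshold of 0.05; residual degrees of freedom were 2. Errors beside differences of tested genes are standard errors of this fit. The script was tested on simulated data. Promoters were aligned with Biopython 1.88, and figures drawn with matplotlib 3.10.9.

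The 10 genes, the 18 gene lists (211 genes, 187 measured) and the tests were chosen with earlier results of these data known. Named are all 10 genes, every called list gene and up to 4 further ones of each list in order of the size of the difference, fixed signalling genes, nearest patterns and neighbours. Apart from these, Alb, Saal1, Fga, Fgb, Fgg, Lbp, Cxcr2, Mpo, Elane, Cftr, Adipoq and Slc22a17 were named after their values were seen. Alternatives were other normalizations, probe set rules, a level filter, another eBayes, a replicate block, another threshold and leaving out each array.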

Additional observations from a re-analysis of the deposited data

Results flagged for a closer look

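The 4 control probe sets for Cre recombinase, which lie outside the comparison of genes, stood above the level of the WT arrays in Baf60a LKO. Over all genes 22.8% lay higher without overlap. The CreX-5 probe set read 2.90 and 2.64 in Baf60a LKO and 2.21 and 2.04 in WT, below background on every array. What transcript these control probe sets read was not tested. The means were 5.76 in Baf60a LKO against 3.68 in WT and 2.77 against 2.12 on the CreX-3 and CreX-5 probe sets. They were 6.05 in Baf60a LKO against 2.64 in WT and 4.28 against 3.02 on the cre-3 and cre-5 probe sets. Groups of 2 arrays are too small to look for a single outlying array.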

How the results depend on the processing

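All 10 genes kept the sign of their difference between genotypes after quantile, loess or median normalization and with averaged probe sets. Saa2 has no value without _x_at and _s_at probe sets, where the other 9 kept their sign. With 1 array left out, Saa3 and Saa4 turned as given above. The median over the 10 genes, 0.42, ran from 0.18 without Baf60a LKO replicate 2 to 0.70 without Baf60a LKO replicate 1. The number of genes called, 88 (43 higher, 45 lower), was 142 after cyclic loess (72 higher, 70 lower), 148 with array medians subtracted (87 higher, 61 lower) and 216 with a trended and robust eBayes (118 higher, 98 lower). It was 19 with a replicate block (5 higher, 14 lower) and 0 to 17 with 1 array left out, where fewer degrees of freedom remain and a lone pool is assumed to vary like the other group. The other positive acute phase genes held 0 calls, also with the replicate block and with each array left out, 1 with array medians subtracted and 2 with the trended eBayes. Equal replicate numbers share only a number in the labels. The deviations of equal-numbered pools correlated at 0.14 over genes. The median of all genes moved by -0.01 to 0.03 under other normalizations. Dim genes near background, such as Il6, cannot show a small difference on these arrays.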
